A study of Mus musculus with 6 samples.

Results

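The 10 genes described here encode proteins through which macrophages sense, release and break down extracellular ATP and adenosine. They are the ATP-gated channels P2rx4 and P2rx7, the nucleotide receptors P2ry2, P2ry6, P2ry13 and P2ry14, the adenosine receptors Adora2a and Adora2b, the ectonucleotidase Entpd1 and the channel gene Panx1. They were taken by gene symbol from the 54532 genes of the deposited table, and all 10 were found.

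Peritoneal macrophages were taken for RNA-seq from wild-type C57BL/6J mice, and 2 libraries were made in each of 3 groups. The methods describe male mice aged 6 to 8 weeks, whose cells were harvested 5 days after an intraperitoneal injection of 3% thioglycolate, a medium that draws macrophages into the cavity, and were cultured overnight. Control cells were left untreated. LPS, a bacterial cell wall component, was given to the Model cells at 500 ng/mL for 5.5 h, and 2 mM ATP followed for 0.5 h. The MUS cells were treated in the same way, with 50 μM muscone, a macrocyclic ketone of musk, added 5 h after LPS and thus 0.5 h before ATP. No group received LPS, ATP or muscone alone, so the effects of LPS and of ATP cannot be told apart in these libraries. The sources do not say whether the 2 libraries of a group came from separate mice or cultures, so the p-values measure the spread between these libraries, which may be technical.

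Extracellular ATP acts on P2X channels, which let cations through, and on P2Y receptors, which couple to G proteins. P2X7 opens only at high ATP, and the potassium efflux that follows is the classical trigger of the NLRP3 inflammasome in primed macrophages. Ectonucleotidases remove ATP stepwise to AMP and adenosine, and adenosine acts through receptors of which those encoded by Adora2a and Adora2b couple to Gs, raise cAMP and are known to restrain inflammatory cytokine production.

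Of the 10 genes, 9 had a mean of at least 1 FPKM (fragments per kilobase of gene length, scaled for library size) over the 6 libraries and were tested, and P2ry13 fell below this level. The limma fit gave 2 differentially expressed genes (DEGs) among the 9 genes in Model vs. Control, Adora2b and P2ry14, which were both higher in Model. Of all 9794 genes tested, 15.1% were DEGs in this comparison. A gene was called a DEG where its p, adjusted by the Benjamini-Hochberg method, was 0.05 or lower and its log2 fold change was above 1 or below -1. No member was a DEG in MUS vs. Model, where 0% of all genes were DEGs in the limma fit, and none of the 9 had an unadjusted p under 0.05, against 8.42% of all genes. With voom, limma's weighted fit to log2 counts per library size, on recovered fragments, the count of DEGs in MUS vs. Model was also 0 among the members and 0 among all genes. The comparison of MUS with Control again gave Adora2b and P2ry14, beside 20.2% of all genes. The comparisons share libraries, so their values are given side by side. Groups did not overlap where both libraries of a group lay above both of the other, which was common with 2 libraries each. In deposited FPKM this held for 61.1% of all genes tested in Model vs. Control, 42.1% in MUS vs. Model and 73.3% in MUS vs. Control. Of the 10 members, 5 lay above and 2 below in Model vs. Control. In MUS vs. Model 3 lay above and 4 below, and in MUS vs. Control 4 above and 3 below. P2ry13, which was not tested, was among the 5 above in Model vs. Control and the 4 below in MUS vs. Model. In bulk RNA, fewer cells of a type and less RNA per cell cannot be told apart.

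Recovered fragments on genes numbered between 15526321 and 17135442 in a library, and the members held between 16 fragments (P2ry13 in Control replicate 1) and 7313 fragments (P2rx4 in Control replicate 1). Model replicate 1 stood apart with 24906 genes that had a fragment, against 17406 to 19200 in the other 5 libraries, and the same 2 members were DEGs against Control without it. All 7 macrophage markers had a mean of at least 1 FPKM, and their summed level lay between 11836 and 13340 FPKM in Control, 8426 and 12535 FPKM in Model, and 10257 and 12096 FPKM in MUS. Most of this sum was Lyz2 (10252 and 12007 FPKM in Control), and it hides markers that moved in opposite directions. Csf1r had 208 and 272 FPKM in Control, 83.4 and 101 FPKM in Model, and 98.0 and 105 FPKM in MUS. Fcgr1 had 18.3 and 7.87 FPKM in Control, 161 and 147 FPKM in Model, and 134 and 156 FPKM in MUS. None of 6 markers of T and innate lymphocytes, 4 of B cells and 5 of mast cells reached a mean of 1 FPKM. Of 5 neutrophil markers only S100a8 did, and the summed level of this list was 13.5 and 30.6 FPKM in Control, 110.0 and 56.5 FPKM in Model, and 64.0 and 50.3 FPKM in MUS, while Ly6g, S100a9 and Retnlg were listed at 0 in all libraries. Of 4 eosinophil markers only Siglecf did, between 1.23 and 4.06 FPKM in all, with Prg2, Epx and Ear1 listed at 0. Of 5 platelet markers only Pf4 did, and the summed level of this list was 87.2 and 174 FPKM in Control, 273 and 129 FPKM in Model, and 131 and 105 FPKM in MUS. The part of these cells in the results below was not tested.

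The Control libraries differed from each other more than the other pairs did for most of these genes, but not for P2rx4, P2rx7 and P2ry14. The median ratio of the higher to the lower library was 2.03 in Control, 1.08 in Model and 1.25 in MUS. For 5 of the 10 members, one Control library held more than 2 times the FPKM of the other, and the ratio was as high as 8.64 for Adora2a. The highest such ratio was 1.62 among the Model libraries and 1.496 among the MUS libraries. Over all genes tested, the Control pair was close to the Model pair. With 1 added to each FPKM, 9.09% of genes differed more than 2-fold in Control, 8.28% in Model and 1.80% in MUS. Values without single Control libraries are therefore given in the paragraphs of the genes they move most.

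**Figure D1:**
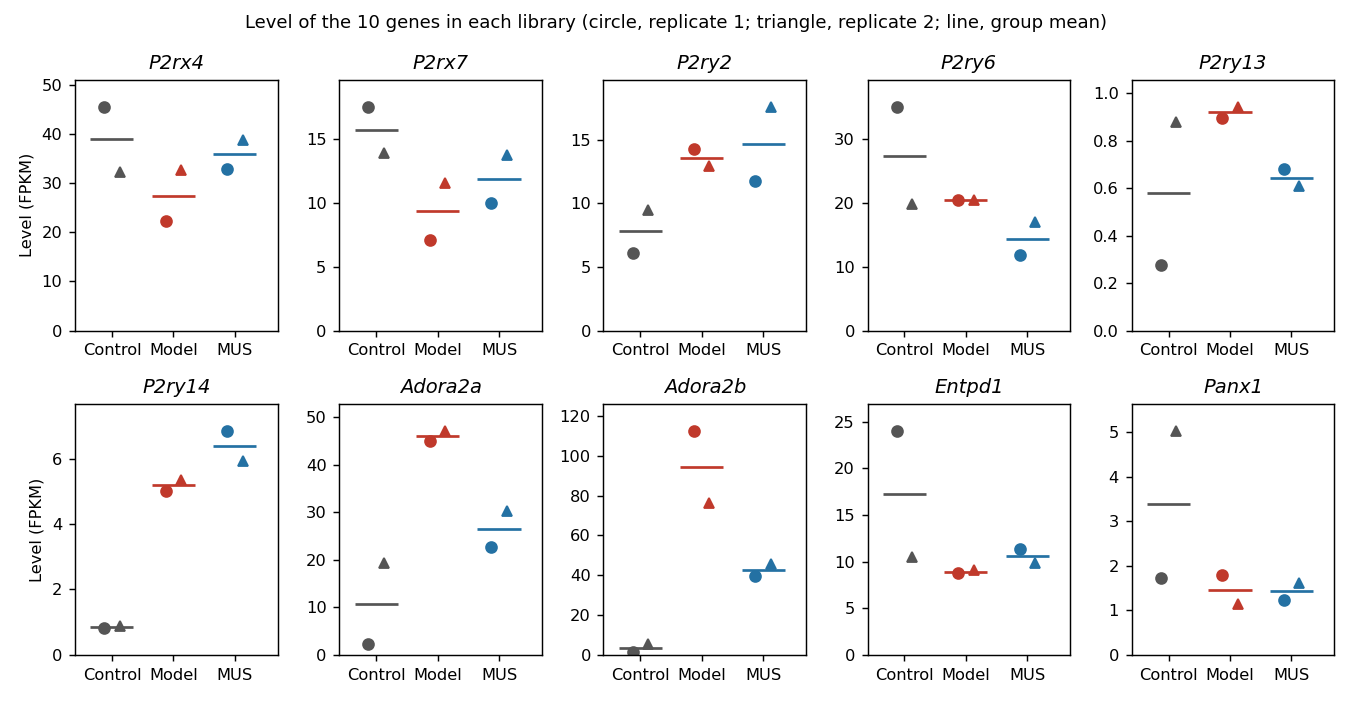
Level of each of the 10 genes in FPKM (vertical axes, linear and starting at 0) in the Control, Model and MUS libraries, with circles for replicate 1, triangles for replicate 2 and a line at the group mean. Adora2b and P2ry14 are higher in all Model and MUS libraries than in both Control libraries, and the Control pairs of Adora2a, Entpd1 and Panx1 are far apart.

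The largest change among the 10 genes was that of Adora2b, the low-affinity receptor for adenosine. Adora2b (ENSMUSG00000018500, chr11:62248984-62266453 on GRCm38, plus strand) had 1.37 and 5.61 FPKM in the Control libraries, 112 and 76.4 FPKM in the Model libraries, and 39.7 and 45.4 FPKM in the MUS libraries. All Model and MUS libraries thus lay above both Control libraries, and the MUS pair lay below the Model pair. Its mean rose 27.0-fold from 3.49 ± 2.998 FPKM in Control to 94.4 ± 25.5 FPKM in Model (SD, n = 2 each). The log2 fold change, taken on log2(FPKM + 1), was 4.56 (standard error 0.48, limma adjusted p = 0.00287), with 5.58 between the libraries of batch 1 and 3.55 between those of batch 2. Adora2b remained a DEG in Model vs. Control under all 16 alternatives, with a log2 fold change between 3.82 and 5.30.

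Adora2b was 12.2-fold higher in MUS than in Control (log2 fold change 3.46, limma adjusted p = 0.00483). Against Model, its mean in MUS was 42.6 ± 4.04 FPKM (SD, n = 2), with a log2 fold change of -1.11 and a 95% interval from -2.25 to 0.04 (unadjusted p = 0.0559 and limma adjusted p = 0.612). The difference was -1.48 in batch 1 and -0.74 in batch 2. It did not pass the threshold under any alternative, although the value lay between -1.38 and -0.83 throughout. The DEG call in MUS vs. Control was lost without the filter on low values (limma adjusted p = 0.0534) and without MUS replicate 1 (limma adjusted p = 0.0557).

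Adora2a, the gene of the high-affinity Gs-coupled adenosine receptor, lies on another chromosome (ENSMUSG00000020178, chr10:75316877-75334784, plus strand). It had 2.24 and 19.4 FPKM in the Control libraries, 44.9 and 47.1 FPKM in the Model libraries, and 22.7 and 30.2 FPKM in the MUS libraries. In deposited FPKM the groups did not overlap in any of the 3 comparisons, a separation common among all genes, but the Control pair was the most unequal of all members. Relative to recovered fragment totals, MUS replicate 1 (1051 of 16222724) lay below Control replicate 2 (1357 of 17135442). Model differed from Control by a log2 fold change of 2.53 with a wide 95% interval from 0.76 to 4.30, and Adora2a was not a DEG (limma adjusted p = 0.0611). Adora2a was a DEG without Control replicate 2 (log2 fold change 3.86, limma adjusted p = 0.000766), whereas the log2 fold change was 1.21 without Control replicate 1. With the replicate number as a block, it was a DEG at the same log2 fold change (limma adjusted p = 0.0248), as when a mean of 5 FPKM was required (limma adjusted p = 0.0411). Against Control, the MUS libraries differed by 1.74 (limma adjusted p = 0.131), and by 3.07 without Control replicate 2, when Adora2a was a DEG (limma adjusted p = 0.00162), but by 0.42 without Control replicate 1. In MUS vs. Model, Adora2a had a log2 fold change of -0.79 (95% interval from -2.56 to 0.98, limma adjusted p = 0.836).

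The balance between both adenosine receptors can be read within a library, where scaling plays no part. The ratio of Adora2b to Adora2a in FPKM was 0.613 and 0.290 in the Control libraries, 2.50 and 1.62 in the Model libraries, and 1.75 and 1.505 in the MUS libraries. Adora2a was thus the more abundant receptor transcript in both Control libraries and Adora2b in all 4 stimulated libraries. The Model and MUS ratios overlapped. The sum of both receptors was 3.62 and 25.0 FPKM in Control, 157 and 124 FPKM in Model, and 62.4 and 75.6 FPKM in MUS. With 2 libraries against 2, an exact permutation test cannot give a p below 0.333, so no test of these ratios is given.

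P2ry14 encodes the receptor for UDP-glucose and other UDP-sugars. It lies inside Med12l on the opposite strand (ENSMUSG00000036381, chr3:59113855-59153618, minus strand) and shares 0 exon bases with that gene. It had 0.827 and 0.881 FPKM in the Control libraries, 5.02 and 5.33 FPKM in the Model libraries, and 6.84 and 5.92 FPKM in the MUS libraries. Replicates were close in every group, and all stimulated libraries lay above both Control libraries. The mean rose 6.06-fold in Model vs. Control, with a log2 fold change of 1.74 (standard error 0.20, limma adjusted p = 0.00325) and nearly equal values in batch 1 (1.72) and batch 2 (1.75). In MUS vs. Control, the mean was 7.48-fold higher (log2 fold change 1.99, limma adjusted p = 0.00187). Both MUS libraries were above both Model libraries, but the log2 fold change was 0.25 (95% interval from -0.21 to 0.72, limma adjusted p = 0.781). P2ry14 was a DEG against Control in both comparisons under all 15 alternatives that tested it, and a mean FPKM of at least 5 left it out.

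P2ry13, an ADP receptor gene 54.3 kb away in the same host gene (ENSMUSG00000036362, chr3:59207892-59210882, minus strand), was near the limit of detection. It had 0.277 and 0.882 FPKM in Control, 0.897 and 0.945 FPKM in Model, and 0.680 and 0.609 FPKM in MUS, from between 16 and 51 fragments a library. Both Model libraries lay above both Control libraries only on the deposited scale. Relative to recovered fragment totals, both Model libraries (32 of 15529580 and 37 of 15526321) lay below Control replicate 2 (51 of 17135442). Without the filter on low values Model and Control differed by a log2 fold change of 0.31 (limma adjusted p = 0.513), and MUS and Model by -0.22 (limma adjusted p = 0.750). The ratio of P2ry14 to P2ry13 was 2.99 and 1.00 in the Control libraries, 5.60 and 5.65 in the Model libraries, and 10.1 and 9.73 in the MUS libraries. These ratios did not overlap between any of the groups, with few P2ry13 fragments behind each of them.

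The promoters of the DEGs are shown because the level of both genes differed from Control in every stimulated library. The sequences are from RefSeq on GRCm38.p6, and 8 of the 10 members had an entry. They were searched on both strands for NF-κB sites (by name), AP-1 sites (TGANTCA), CRE sites (TGACGTCA), the CRE core that lies within them (TGACG), the ISRE core (GAAA, any 2 bases, GAAA) and GC boxes (GGGCGG) over the 250 bases before the most upstream RefSeq start, and capitals mark the matches. For P2ry14, whose start in the deposited table lies further upstream, only the 124 bases outside the gene are printed.
Adora2b, chr11:62248734-62248983, plus strand: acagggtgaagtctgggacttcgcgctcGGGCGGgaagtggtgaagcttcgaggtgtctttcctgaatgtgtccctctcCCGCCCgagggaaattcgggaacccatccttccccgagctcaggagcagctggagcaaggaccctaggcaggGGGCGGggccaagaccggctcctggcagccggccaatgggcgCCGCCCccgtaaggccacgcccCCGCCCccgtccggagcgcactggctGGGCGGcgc
P2ry14, chr3:59153619-59153742, minus strand: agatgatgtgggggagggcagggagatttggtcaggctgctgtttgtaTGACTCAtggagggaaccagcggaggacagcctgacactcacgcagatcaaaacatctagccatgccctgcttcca

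The Adora2b window held 6 GC boxes and a GC content of 69.6%, and none of the other motifs. The P2ry14 window held 1 AP-1 match, 202 to 196 bases before the RefSeq start, and none of the other motifs. Among 27025 mouse promoters of the same length, 33.0% held a GC box and 6.85% an AP-1 match, while 7.03% held an NF-κB match, 1.60% a CRE, 17.8% the CRE core and 3.05% an ISRE core. The other AP-1 match was in the P2rx7 window, 249 to 243 bases before the start, so the promoters of both DEGs had no searched motif in common. A match is a stretch of letters and was not tested as a binding site.

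Both ATP-gated channels were expressed in every library and neither was a DEG. P2rx7 (ENSMUSG00000029468, chr5:122643911-122691432, plus strand) had 17.5 and 13.9 FPKM in Control, 7.12 and 11.5 FPKM in Model, and 10.01 and 13.8 FPKM in MUS. Both Model libraries lay below both Control libraries, with a log2 fold change of -0.72 (95% interval from -1.44 to -0.00304, limma adjusted p = 0.147). The MUS libraries overlapped the Model libraries, with a log2 fold change of 0.34 (95% interval from -0.38 to 1.06, limma adjusted p = 0.821). P2rx4, which responds to lower ATP than P2rx7 does and lies 16.1 kb from it (ENSMUSG00000029470, chr5:122707544-122729738, plus strand), had 45.5 and 32.3 FPKM in Control, 22.2 and 32.6 FPKM in Model, and 32.9 and 38.7 FPKM in MUS. For P2rx4 the log2 fold change between Model and Control was -0.49 (95% interval from -1.24 to 0.25, limma adjusted p = 0.310), and -0.25 without Control replicate 1. With muscone, against Model, it was 0.39 (95% interval from -0.36 to 1.14, limma adjusted p = 0.798).

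P2rx4 was the more abundant channel transcript in all 6 libraries. The ratio of P2rx4 to P2rx7 within a library was 2.60 and 2.32 in the Control pair, 3.12 and 2.83 in the Model pair, and 3.29 and 2.81 in the MUS pair. This was the narrowest range of the 4 pairs compared, from 2.32 to 3.29, although both Control libraries had lower ratios than all others. The DEG call of P2rx7 depended on scaling. It was a DEG in Model vs. Control with fragment-total scaling (log2 fold change -1.24, limma adjusted p = 0.0368), when the median of all genes was also shifted to -0.40 from 0.04, and with 2 other settings of this kind.

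**Figure D2:**
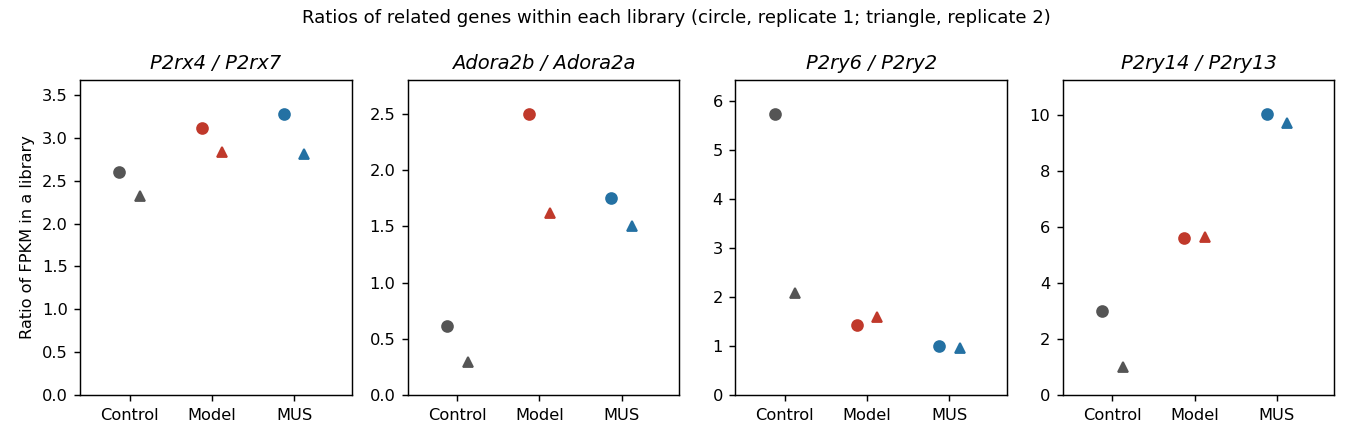
Ratio of the FPKM of related genes within each library (vertical axes, linear and starting at 0), with circles for replicate 1 and triangles for replicate 2. P2rx4 to P2rx7 stays between 2.32 and 3.29, Adora2b to Adora2a is below 1 only in Control, and P2ry14 to P2ry13 is 10.1 and 9.73 in MUS.

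The receptors P2ry2, which responds to ATP and UTP, and P2ry6, which responds to UDP, are neighbours on chromosome 7 at a distance of 21.9 kb. P2ry2 (ENSMUSG00000032860, chr7:100996568-101012866, minus strand) had 6.11 and 9.48 FPKM in Control, 14.3 and 12.95 FPKM in Model, and 11.8 and 17.6 FPKM in MUS. All stimulated libraries lay above both Control libraries, with a log2 fold change of 0.76 in Model vs. Control (95% interval from 0.05 to 1.46, unadjusted p = 0.0389 and limma adjusted p = 0.126). MUS and Model overlapped, with a log2 fold change of 0.08 (95% interval from -0.63 to 0.79, limma adjusted p = 0.969). With fragment-total scaling the value in Model vs. Control was 0.26, and without Control replicate 1 it was 0.48. The separation of MUS from Control held only on the deposited scale. Relative to recovered fragment totals, MUS replicate 1 (699 of 16222724) lay below Control replicate 2 (852 of 17135442).

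P2ry6 (ENSMUSG00000048779, chr7:100937630-100974649, minus strand) had 35.1 and 19.8 FPKM in Control, 20.5 and 20.5 FPKM in Model, and 11.8 and 17.0 FPKM in MUS. The Model libraries lay within the Control range, and both MUS libraries lay below all others. For P2ry6 the log2 fold change was -0.35 between Model and Control (limma adjusted p = 0.4997), -0.50 between MUS and Model (95% interval from -1.30 to 0.30, limma adjusted p = 0.750) and -0.85 in MUS vs. Control (limma adjusted p = 0.109). The difference from Control passed the threshold under 4 of the alternatives, namely fragment-total scaling, scaling without the mitochondrial and 20 highest genes, voom and the fit without Control replicate 2. The value in Model vs. Control was 0.049 without Control replicate 1. The ratio of P2ry6 to P2ry2 was 5.74 and 2.09 in the Control pair, 1.44 and 1.58 in the Model pair, and 1.00 and 0.967 in the MUS pair, with no overlap between groups.

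Entpd1 encodes CD39, which removes phosphates from extracellular ATP and ADP to give AMP. Entpd1 (ENSMUSG00000048120, chr19:40612366-40741602, plus strand) had 24.0 and 10.5 FPKM in Control, 8.75 and 9.10 FPKM in Model, and 11.3 and 9.84 FPKM in MUS. Both Model libraries lay below both Control libraries, though only slightly below Control replicate 2. For Entpd1 the log2 fold change between Model and Control was -0.77 (95% interval from -1.65 to 0.10, limma adjusted p = 0.190), with -1.36 in batch 1 and -0.19 in batch 2. It was -1.33 without Control replicate 2, when Entpd1 was a DEG (limma adjusted p = 0.0183), and -0.22 without Control replicate 1. Entpd1 was also a DEG with voom (-1.38, limma adjusted p = 0.0354) and with scaling without the mitochondrial and 20 highest genes (-1.36, limma adjusted p = 0.0402). In MUS vs. Control the value was -0.55, and it was -1.11 without Control replicate 2, when Entpd1 was a DEG (limma adjusted p = 0.0293), but 0.00420 without Control replicate 1. In MUS vs. Model it was 0.22 (95% interval from -0.65 to 1.09, limma adjusted p = 0.919).

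Panx1 encodes a channel through which cells release ATP. Panx1 (ENSMUSG00000031934, chr9:15002128-15045478, minus strand) was low throughout, with 1.73 and 5.02 FPKM in Control, 1.80 and 1.13 FPKM in Model, and 1.23 and 1.62 FPKM in MUS. Only Control replicate 2 stood out, while Control replicate 1 lay within the range of the Model libraries. Between Model and Control the log2 fold change was -0.73 (95% interval from -1.63 to 0.17, limma adjusted p = 0.224), with 0.03 in batch 1 and -1.50 in batch 2. It was -1.30 without Control replicate 1 and -0.16 without Control replicate 2, with no DEG call in either, and Panx1 was a DEG there with voom (-1.60, limma adjusted p = 0.0449). Against Model, the MUS libraries differed by -0.02 (95% interval from -0.92 to 0.89, limma adjusted p = 0.995), and this value had the opposite sign under 2 other scalings. In MUS vs. Control it was -0.75, and Panx1 was a DEG with voom and without Control replicate 1.

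**Figure D3:**
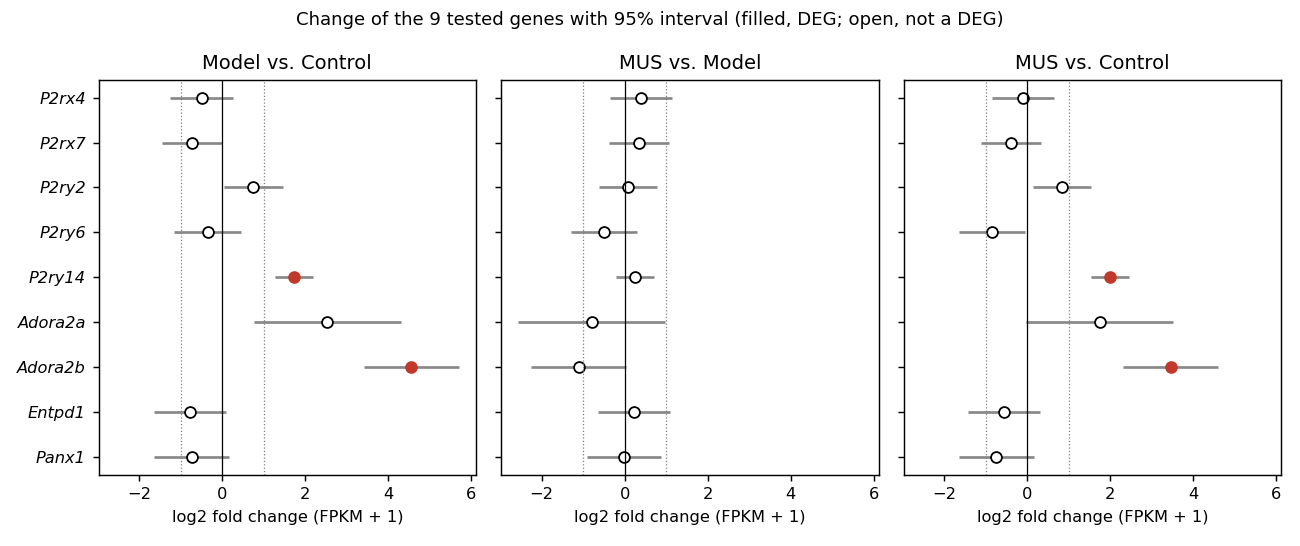
log2 fold change on log2(FPKM + 1) of the 9 tested genes (horizontal axis) in the 3 comparisons, with 95% intervals from limma and dotted lines at a log2 fold change of 1 in either direction. Adora2b and P2ry14 are the filled points, as DEGs against Control in both comparisons, and the intervals of all 9 genes include 0 in MUS vs. Model.

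The order of the members changed with stimulation. P2rx4 was the highest in Control (38.9 ± 9.36 FPKM), followed by P2ry6 (27.4 ± 10.8 FPKM) and Entpd1 (17.3 ± 9.53 FPKM), and the libraries of P2rx4 and P2ry6 overlapped (SD, n = 2 each). In Model, Adora2b was the highest (94.4 ± 25.5 FPKM), with both libraries above those of Adora2a (46.0 ± 1.57 FPKM), which in turn lay above those of P2rx4 (27.4 ± 7.34 FPKM). In MUS, Adora2b (42.6 ± 4.04 FPKM) and P2rx4 (35.8 ± 4.11 FPKM) came first, and the lower library of Adora2b (39.7 FPKM) was close to the higher library of P2rx4 (38.7 FPKM). Lower in the order, the libraries of P2ry2, P2ry6 and P2rx7 overlapped in MUS, as did those of P2rx7 and Entpd1 in all 3 groups. P2ry13 had the lowest mean in every group, and its libraries overlapped those of P2ry14 in Control and lay below all others in Model and MUS. Adora2b made up 1.02% and 4.77% of the summed FPKM of the 10 genes in the Control pair, 47.3% and 35.1% in the Model pair, and 26.7% and 25.1% in the MUS pair.

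Scaling affects how the genes that were lower or higher in Model are read. Against the recovered fragment total, the library size that the deposited FPKM imply was 1.45-fold and 1.34-fold in Control and ranged from 0.909 to 0.998 among the 4 stimulated libraries. Rescaled to fragment totals, P2rx4, P2rx7, P2ry6, Entpd1 and Panx1 had log2 fold changes of -1.03, -1.24, -0.88, -1.29 and -1.14 in Model vs. Control. The median of all genes was then -0.40. Of these genes, only P2rx7 passed the threshold there. Among all genes, 646 DEGs were then higher and 1554 lower in Model, against 930 higher and 545 lower on the deposited scale and 707 higher and 715 lower with quantile normalization. With fragment-total scaling, Adora2b (4.15, against 4.56 on the deposited scale) and P2ry14 (1.44, against 1.74) remained DEGs. The log2 fold change of P2ry2 was 0.26, against 0.76.

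**Figure D4:**
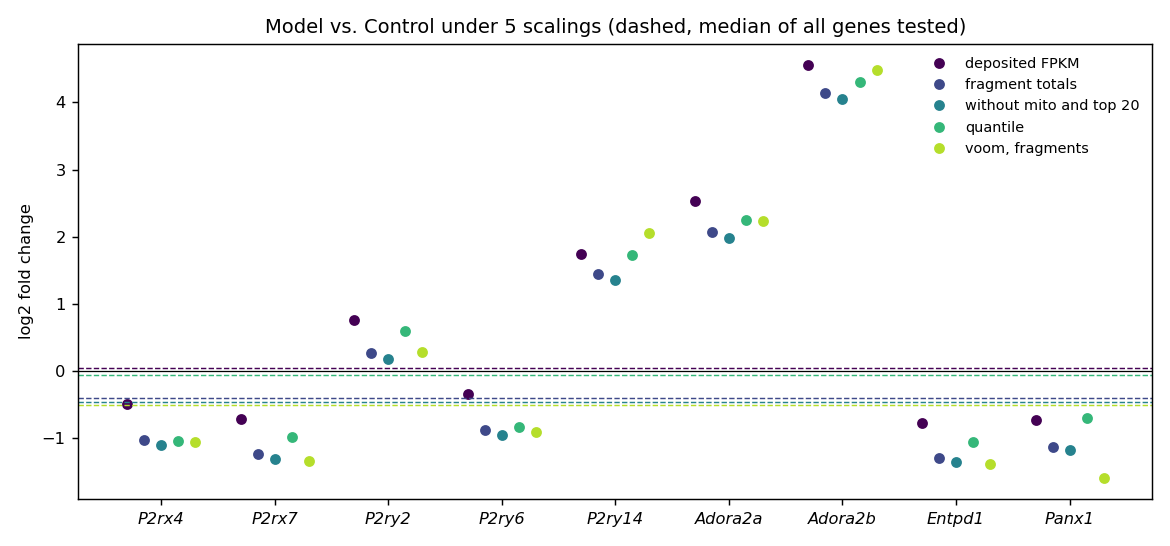
log2 fold change of the 9 tested genes in Model vs. Control (vertical axis) under the deposited FPKM and 4 other scalings, with a dashed line for each at the median of all genes tested. Adora2b, P2ry14, Adora2a and P2ry2 lie above 0 under all 5, the other 5 genes lie below 0 under all 5, and the medians range from -0.50 to 0.04.

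Other genes of this signalling system were taken from 9 lists with 63 genes, of which 31 were tested. In Model vs. Control, 8 of the 31 were DEGs with higher and 3 with lower levels in Model, and the median log2 fold change was -0.12, against 0.04 for all genes, of which 15.1% were DEGs. The balance of direction depended on scaling, as 6 were higher and 11 lower with fragment-total scaling, and 8 higher and 13 lower with voom. In MUS vs. Model, 0 of the 31 were DEGs (limma) and 2 had an unadjusted p under 0.05, against 8.42% of all genes. The receptors outside the 10 members were mostly near 0. None of the 5 other P2X genes and none of the 2 other adenosine receptor genes reached a mean of 1 FPKM. The highest of these lists were P2rx1 (mean 0.324 FPKM) and Adora3 (mean 0.094 FPKM). Adora1 and P2ry4 were listed at 0 in all 6 libraries.

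P2ry1, an ADP receptor, was the only other P2Y gene tested, and it fell in the fit reported. It had 3.29 and 2.04 FPKM in Control, 0.528 and 0.376 FPKM in Model, and 0.355 and 0.387 FPKM in MUS, with a log2 fold change of -1.32 in Model vs. Control (limma adjusted p = 0.0175). It was a DEG under 8 of 15 alternatives, the limma adjusted p reaching 0.0958 in the others. P2ry14 and P2ry1 thus changed in opposite directions, and both stayed on the same side of Control in MUS.

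Of the genes that act on extracellular nucleotides, Acpp, a phosphatase that can convert AMP to adenosine, rose 2.74-fold in Model vs. Control (log2 fold change 1.23, limma adjusted p = 0.0129), and was a DEG under 11 of 16 alternatives. With fragment-total scaling its log2 fold change was 0.78, and Acpp was not a DEG. Enpp1, which splits ATP into AMP and pyrophosphate, had 4.74 and 1.88 FPKM in Control and 0.953 and 0.963 FPKM in Model, and its log2 fold change of -1.05 did not pass the threshold (limma adjusted p = 0.0810). Nt5e, the gene of CD73, the main ecto-enzyme that makes adenosine from AMP, held at most 0.142 FPKM in a library, from between 2 and 28 fragments, and was not tested. Neither of the 2 intracellular Entpd paralogues tested was a DEG, the higher over all 6 libraries being Entpd7 with a mean of 2.10 FPKM in Control and 1.62 FPKM in Model.

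The genes that take up and process nucleosides included the largest change of the 9 lists, that of Slc28a2. This sodium-coupled transporter of purine nucleosides such as adenosine had 7.81 and 9.21 FPKM in Control, 207 and 291 FPKM in Model, and 220 and 231 FPKM in MUS. Slc28a2 rose 29.3-fold in Model vs. Control (log2 fold change 4.70, limma adjusted p = 0.000959), as a DEG under all 16 alternatives, and MUS and Model overlapped. Pnp, the phosphorylase that splits inosine and guanosine, had 8.25 and 33.3 FPKM in Control, 353 and 198 FPKM in Model, and 173 and 155 FPKM in MUS. Pnp rose in Model with a log2 fold change of 3.90 (limma adjusted p = 0.00879), and the MUS pair lay below the Model pair (log2 fold change -0.69, limma adjusted p = 0.821). Slc29a3, a nucleoside transporter of lysosomes, fell, with 35.6 FPKM on average in Control and 11.99 FPKM in Model (log2 fold change -1.48, limma adjusted p = 0.0274), and was a DEG under 10 of 16 alternatives.

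Among other routes of ATP release, Calhm6, a member of the calcium homeostasis modulator channel family, had 2.72 and 16.4 FPKM in Control, 261 and 148 FPKM in Model, and 166 and 138 FPKM in MUS. It rose in Model vs. Control with a log2 fold change of 4.62 (limma adjusted p = 0.00737). Pnp and Calhm6 were DEGs under 14 of 16 alternatives, and lost the call without the filter on low values and without Model replicate 1. Gja1, the gene of connexin 43, was 4.29-fold higher in Model, but its log2 fold change of 0.94 on log2(FPKM + 1) missed the threshold of 1 (limma adjusted p = 0.0346). Panx2 had 1 fragment, in Control replicate 1, and Panx3 had 16 fragments, all in Model replicate 1.

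Of 9 tested G protein and effector genes, only Plcb2, a phospholipase C, was a DEG in Model vs. Control, and it fell (log2 fold change -1.16, limma adjusted p = 0.0291), as a DEG under 8 of 15 alternatives. Gnai2 was the highest of this list, with mean levels of 137 FPKM in Control, 126 FPKM with LPS and ATP, and 97.4 FPKM with muscone added, and it was not a DEG. Adcy7, an adenylyl cyclase, had a log2 fold change of -1.04 in Model vs. Control (limma adjusted p = 0.0529).

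cAMP-responsive genes were listed because both adenosine receptors raise cAMP, though many of these genes also respond to LPS. Crem, Pde4b, Nr4a3 and Dusp1 rose in Model vs. Control, with log2 fold changes of 1.09, 3.37, 2.09 and 2.09 (limma adjusted p = 0.0130, 0.0239, 0.00317 and 0.00655), while Sik1, Per1 and Fos had negative values that did not pass the threshold. Dusp1 was a DEG under 16 of 16 alternatives and Nr4a3 under 15 of 15, but Crem under 10 of 15 and Pde4b under 10 of 16. With fragment-total scaling Crem had a log2 fold change of 0.76 and was not a DEG. In MUS vs. Model, all 8 tested genes of this list had a positive log2 fold change, against 51.3% of all genes. Their median was 0.57 against 0.01 for all genes, and none was a DEG. For 8 of the 10 genes of the list, both MUS libraries lay above both Model libraries. Not all of these 8 were tested, as the list includes 2 untested genes. Of all tested genes, 21.2% lay above in this way and 0% were DEGs. Nr4a1, an immediate early gene of the nuclear receptor family, had 1.65 and 1.06 FPKM in Control, 1.49 and 3.13 FPKM in Model, and 10.9 and 8.33 FPKM in MUS. Its log2 fold change in MUS vs. Model was 1.72 (unadjusted p = 0.000729, limma adjusted p = 0.273), and that of Nr4a3 was 0.63 (unadjusted p = 0.0288, limma adjusted p = 0.513). Adora2a and Adora2b were lower and Nr4a1 and Nr4a3 higher in both MUS libraries than in both Model libraries, without passing the threshold. Nr4a1 and Nr4a3 were named for their unadjusted p in this comparison. The groups did not overlap there for 42.1% of all genes tested. A link between the receptors and these genes was not tested.

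**Figure D5:**
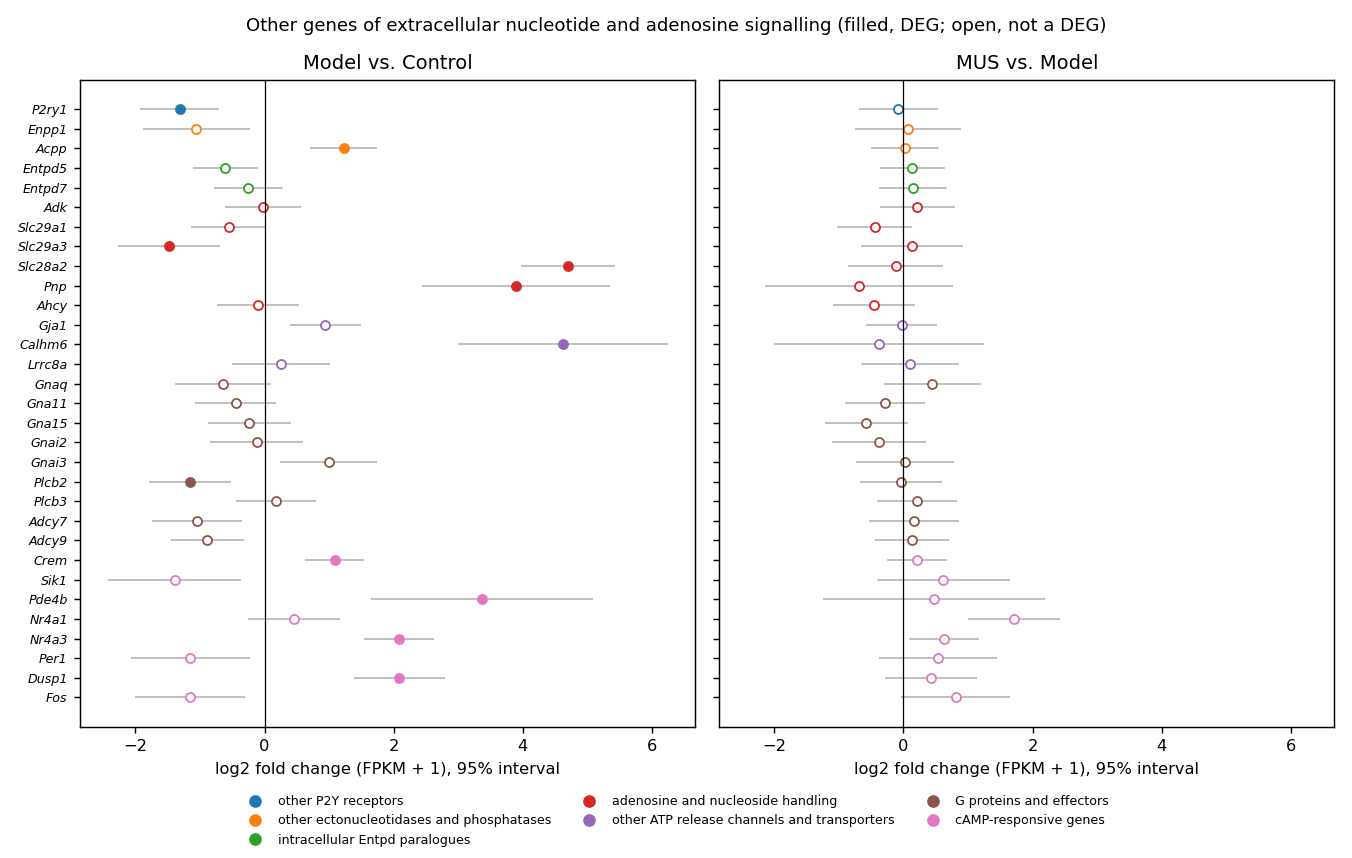
log2 fold change on log2(FPKM + 1) with 95% intervals of the 31 other genes tested (horizontal axis, the same in both panels), coloured by list, for Model against Control and for MUS against Model. Filled points are the 11 DEGs in Model vs. Control, led by Slc28a2 (4.70), Calhm6 (4.62) and Pnp (3.90), and MUS vs. Model has none.

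Each member is counted with little ambiguity from other genes. Of its 50-base stretches, P2rx4 shares 1.36% with transcripts of 194 other genes, P2rx7 shares 1.17% and P2ry14 0.00897% with those of 1 other gene each, and the other 7 members share 0%. The exons of P2rx7 share 119 bases with the microRNA gene Mir8115 on the same strand, which was listed at 0 in all libraries. These bases may be the same as the stretches that P2rx7 shares with 1 other gene.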

How the data were processed

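Poly-A RNA of mouse peritoneal macrophages was sequenced in 6 libraries. The table deposited by the authors gives FPKM for each library beside the gene_length of every gene in bases. The methods name RSEM, whereas the submitters' processing notes list HISAT2, featureCounts 1.5.0-p3 and the build GRCm39. Positions in the table are those of GRCm38, where 98.3% of the 54409 identifiers also found in GENCODE M21 had an identical start and end. Multiplied by gene length, 100% of the values in a library were whole multiples of the smallest one (tolerance 0.1 of it), which gave fragments per gene. The limit set by 3 fragments on 1 kb, for a gene listed at 0, was 0.131 to 0.213 FPKM, for counting error alone. The library kit does not mark strand. All 6 columns were used, and 0 had no sample.

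limma 3.58.1 in R 4.3.3 (lmFit, contrasts.fit, eBayes with trend, two-sided) was fitted to log2(FPKM + 1) of all 6 libraries for the 9794 genes whose mean FPKM was 1 or more, with 3 residual and 4.04 prior degrees of freedom, and Benjamini-Hochberg adjustment over these genes. The fit reported used the deposited FPKM, which are not counts. The recovered fragments entered the voom and fragment-total alternatives, and DESeq2, which the authors used, was not run on them. Adding 1 makes the fold change of a low gene smaller. The fit was tested on simulated data. The labels give the replicate number as batch, and the replicate differences correlated across genes with r = 0.12 between the Control and Model pairs, 0.14 between Model and MUS, and -0.09 between MUS and Control. The fit with this block is an alternative. Python 3.11.15, NumPy 2.4.6, pandas 2.3.3 and Matplotlib 3.10.9 were used for the rest.

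The members and lists were chosen with earlier results of these data known. Named are the 10 members and, of the other listed genes, DEGs, genes with an unadjusted p of at most 0.05 in MUS vs. Model and the highest of each list. Enpp1, Nt5e, Gja1, Adcy7, Sik1, Per1, Fos, the markers Lyz2, Csf1r and Fcgr1, and genes listed at 0 were named after their values were seen. Calhm6 was listed under its older symbol Fam26f.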

Additional observations from a re-analysis of the deposited data

How the results depend on the processing

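Of 142 values of single members under the 16 alternatives in each comparison, 131 in Model vs. Control, 137 in MUS vs. Model and 129 in MUS vs. Control kept their direction and their side of the threshold. The members counted as DEGs in Model vs. Control (2 in the fit reported) were 5 with voom on recovered fragments, 4 with scaling without the mitochondrial and 20 highest genes, and between 2 and 4 when single libraries were left out. Members counted as DEGs in MUS vs. Control (2) were 1 without the filter on low values, 1 when a mean FPKM of 5 was required, 4 with voom, and between 1 and 5 without single libraries. In MUS vs. Model the members gave 0 under all alternatives.

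All genes gave 1475 DEGs in Model vs. Control, 260 without the filter, 797 when only the 2 groups were fitted, 2734 with voom (684 higher and 2050 lower), 2374 with scaling without the mitochondrial and 20 highest genes (584 higher and 1790 lower, against 930 and 545), and between 692 and 2077 without single libraries, the lowest without Model replicate 1 and the highest without Control replicate 2. In MUS vs. Control they gave 1980, 456 without the filter, 3144 with voom, and between 184 (without MUS replicate 1) and 2398 without single libraries. In MUS vs. Model they gave 0, 1 with a pseudocount of 0.1, 7 when only the 2 groups were fitted, 4 with the replicate block, and between 0 and 31 (without Model replicate 2) without single libraries. With the replicate block, Adora2a was the only member whose call changed, and 12 of the other listed genes were DEGs in Model vs. Control.

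The 31 other listed genes gave 11 DEGs in Model vs. Control (8 higher and 3 lower), 3 without the filter, 7 when only the 2 groups were fitted, 21 with voom (8 higher and 13 lower), 17 with fragment-total scaling (6 and 11), 18 with scaling without the mitochondrial and 20 highest genes (6 and 12), and between 4 and 17 without single libraries. None of the lower calls was kept without the filter, with only the 2 groups fitted, or without Control replicate 1, Model replicate 1, MUS replicate 1 or MUS replicate 2. In MUS vs. Control they gave 12, 4 without the filter, 7 when a mean FPKM of 5 was required, 21 with voom, and between 2 and 17 without single libraries.

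Some directions near 0 turned. Panx1 in MUS vs. Model was 0.041 with scaling without the mitochondrial and 20 highest genes, 0.010 with quantile normalization, and between -0.21 and 0.18 without single libraries (above 0 without Model replicate 1 or MUS replicate 1). Without single libraries, P2ry2 in MUS vs. Model was between -0.19 (MUS replicate 2 left out) and 0.35, and P2ry6 in Model vs. Control between -0.75 and 0.049 (Control replicate 1 left out). In MUS vs. Control, P2rx4 was between -0.34 and 0.14, and Entpd1 between -1.11 and 0.00420, both highest with Control replicate 1 left out. The cause of these changes was not tested. A group left with 1 library is assumed to vary like the others.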
